A study of Astyanax mexicanus with 12 samples.

Results

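The report concerns 4 of the 27420 genes in the count table of an ovary RNA sequencing study in Astyanax mexicanus, a species that lives both in rivers, as surface fish, and in caves, as eyeless and pale cavefish. The genes are BAHCC1 (ENSAMXG00000016074), letm1, and ENSAMXG00000001654 and ENSAMXG00000016415, which carry no symbol. They were chosen by name from results of the same libraries. BAHCC1 and both unnamed genes are the genes that passed an adjusted p of 0.05 between starved and control Tinaja cavefish, and letm1 passed it for the difference between the responses of Tinaja cavefish and surface fish. All 4 were read highly enough to be tested. A second gene that carries the symbol BAHCC1, ENSAMXG00000042322, is shown beside the first.

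The ovaries came from 3 starved Tinaja cavefish, 3 control Tinaja cavefish, 3 starved surface fish and 3 control surface fish, all females of about 660 days after fertilisation, and each library was made from the right ovary. The labels give every fish of both populations the genotype WT and call the controls non-treated. The length of starvation is not stated in the labels. They also do not say how the fish of a group were related or housed, so a p-value covers the spread among these ovaries and nothing wider.

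Reads assigned to genes numbered 5949155 to 7973058 per library in starved and 6496339 to 6923563 in control Tinaja cavefish, and 7779996 to 10198881 in starved and 7152581 to 8286320 in control surface fish. Correlations of log2 expression between libraries of the same group were 0.961 to 0.973. The 15 oocyte markers, among them the egg polarity gene buc and the germline helicase gene ddx4, were all read, with a summed level of 5359 to 8033 CPM over the 12 libraries. CPM is a gene's read count relative to the gene reads of its library, here scaled between libraries by trimmed mean of M values (TMM). The 14 granulosa cell markers, from the follicle cells around the oocyte, summed to 18.2 to 52.3 CPM, and 9 of them could be tested. Their highest counts in a library ran from 1 read for foxl2a to 155 reads for lhcgr. These are whole ovaries, so fewer cells of a type and less RNA per cell cannot be told apart.

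BAHCC1 encodes a large nuclear protein with a BAH domain, a fold that reads histone tails. In human cells the protein binds the methyl mark that Polycomb places on histone H3 and works with co-repressors that carry histone deacetylases. TNRC18 is its close relative in vertebrates. The product of letm1 lies in the inner membrane of mitochondria, where it takes part in the exchange of potassium or calcium ions for protons and keeps the volume and folds of the organelle. Oocytes hold large stocks of mitochondria, which are passed to the embryo.

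BAHCC1 (ENSAMXG00000016074) was higher in the starved than in the control ovaries of Tinaja cavefish and stood highest in surface fish. It measured 83.0, 75.3 and 99.3 CPM in the 3 starved Tinaja cavefish, against 45.3, 50.6 and 49.6 CPM in the 3 controls. Surface fish had 118, 113 and 129.8 CPM in the starved and 134.9, 139 and 149.6 CPM in the control ovaries. No group overlapped its neighbour in the order of means, with control surface fish on top, then starved surface fish, starved Tinaja cavefish and control Tinaja cavefish. Of all tested genes, 4.69% lay higher without overlap in starved than in control Tinaja cavefish, 14.8% lower in starved than in control surface fish and 26% lower in starved Tinaja than in starved surface fish.

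The log2 change of BAHCC1 with starvation was 0.82 ± 0.102 (SE) in Tinaja cavefish, a 1.77-fold higher level, with an adjusted p of 0.0137 by the edgeR quasi-likelihood test. This is the contrast that chose the gene, as for both unnamed genes below, so the value is a description. In that contrast 3 of the 14627 tested genes passed, 0.0205% of them, and 578 had an unadjusted p under 0.05. The call ended without control 3 of Tinaja cavefish (adjusted p = 0.0718) and in a fit of the Tinaja libraries alone (adjusted p = 0.329).

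The surface libraries entered the Tinaja contrast only through the shared filter, scaling and spread of the fit. In surface fish, starved ovaries had a log2 change of -0.23 ± 0.0972 (SE) for BAHCC1, with an interval of -0.45 to -0.0054 at 95%. It did not pass the test (edgeR adjusted p = 0.185), in a comparison where 3.19% of the tested genes did. The difference between the responses of Tinaja cavefish and surface fish was 1.05 ± 0.141 on the log2 scale (edgeR adjusted p = 0.0129). With the reads of both BAHCC1 genes summed, as described below, it was 0.63 and did not pass (edgeR adjusted p = 0.144). The test contains the contrast that chose the gene and passed 10 genes, 0.0684% of those tested.

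**Figure D1:**
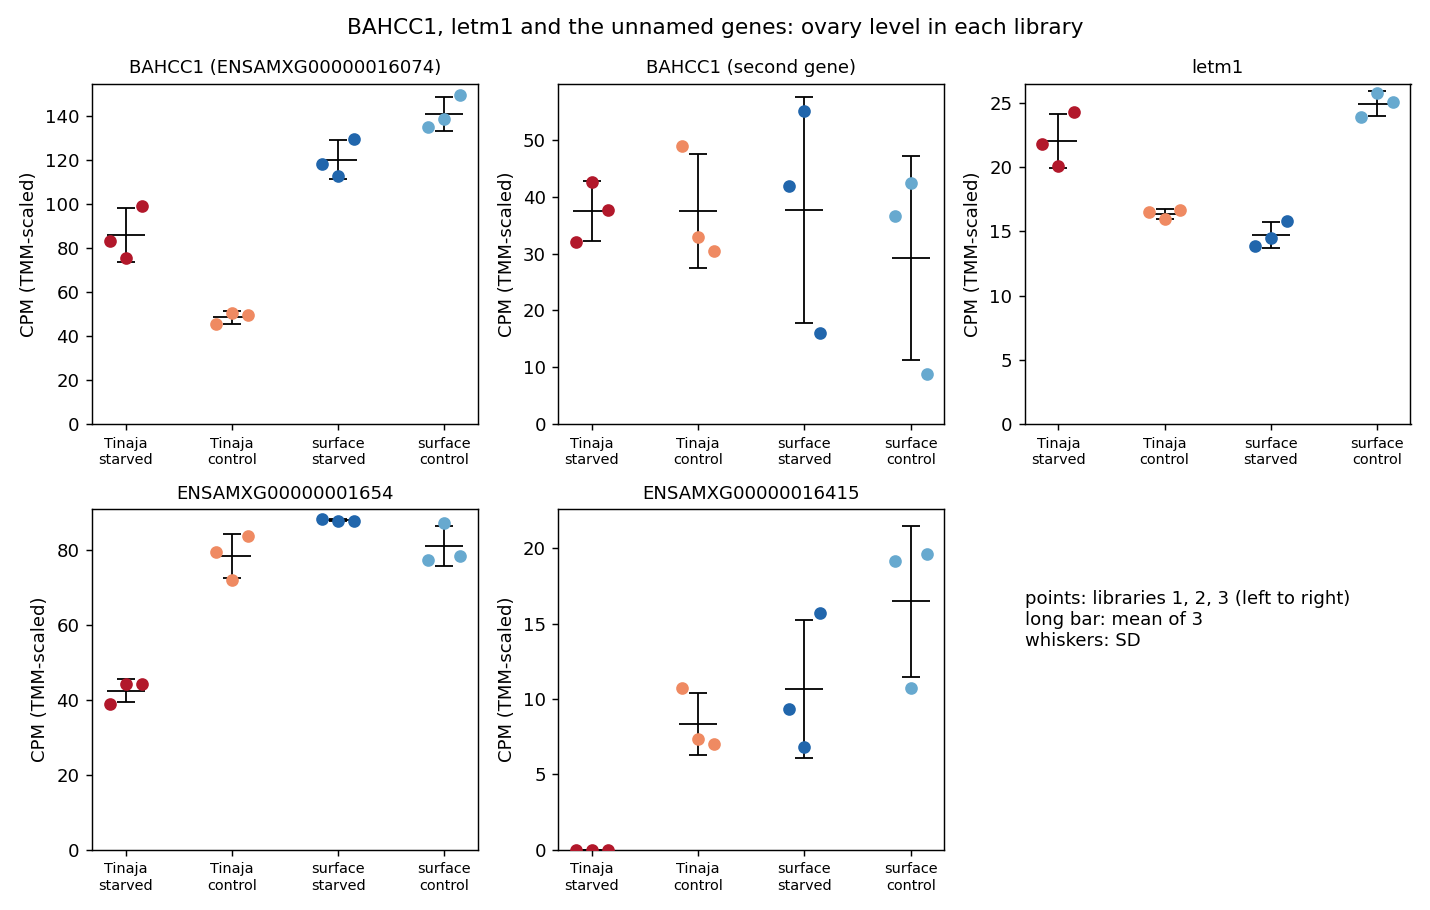
CPM (TMM-scaled, vertical axes from 0) of the 4 genes and the second BAHCC1 gene in starved and control Tinaja cavefish and starved and control surface fish. Points are libraries, long bars the mean of 3 and whiskers the SD. The 3 starved Tinaja cavefish lie above their controls for BAHCC1 (ENSAMXG00000016074) and letm1, below them for ENSAMXG00000001654, and at 0 reads for ENSAMXG00000016415.

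Averaged over feeding, BAHCC1 was lower in Tinaja cavefish than in surface fish by a log2 difference of -1.01 ± 0.0708 (edgeR adjusted p = 3.32e-07). This comparison is orthogonal to the starvation contrasts, but it takes in the Tinaja libraries that chose the gene, so it is given as a description too. It is a common result among the tested genes: 25.3% were lower and 25.7% higher in Tinaja cavefish. The populations stood further apart in the control fish, which restates the difference between the responses and is a description. BAHCC1 averaged 48.5 ± 2.84 CPM in control Tinaja cavefish and 141 ± 7.60 in control surface fish (SD, n = 3 each), 2.91-fold more in surface fish, and 85.9 ± 12.2 CPM in starved Tinaja cavefish and 120.2 ± 8.69 in starved surface fish, 1.40-fold more in surface fish.

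The second BAHCC1 gene did not separate the groups as the first did. It had 32.1, 42.7 and 37.7 CPM in starved and 49.0, 33.0 and 30.5 CPM in control Tinaja cavefish. Surface fish had 41.8, 55.0 and 15.9 CPM of it in starved and 36.5, 42.5 and 8.77 CPM in control ovaries. The groups overlapped throughout, and starved 3 and control 3 of surface fish lay far below the other 10 libraries. The SD within groups was 0.801 on the log2 scale, larger than that of 92.5% of the tested genes, against 0.127 for the first gene and a median of 0.207.

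For the second gene the log2 change with starvation was 0.0018 ± 0.547 in Tinaja cavefish and 0.35 ± 0.549 in surface fish. Neither passed the edgeR test (adjusted p = 1 and 0.758), and the intervals of -1.26 to 1.26 and -0.91 to 1.62 do not show that the level stayed the same. Leaving out starved 2 or control 3 of surface fish turned the small surface value round, to -0.030 and -0.077. Averaged over feeding, the population difference was 0.18 ± 0.387 (edgeR adjusted p = 0.724).

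No source used here states the annotation and strand setting behind the counts, so the division of reads between genes of one symbol is uncertain. Of the reads of both BAHCC1 genes, ENSAMXG00000016074 held 72.1%, 63.8% and 72.5% in starved and 48.0%, 60.55% and 61.97% in control Tinaja cavefish, and in surface fish 73.8%, 67.2% and 89.1% in starved and 78.7%, 76.6% and 94.5% in control ovaries. Both genes together measured 123.4 ± 11.9 CPM in starved and 86.0 ± 7.39 CPM in control Tinaja cavefish (SD, n = 3 each), still without overlap. They measured 158 ± 11.2 CPM in starved and 170.3 ± 11.5 CPM in control surface fish, which overlapped. With the reads of both genes summed before the fit, the Tinaja change was 0.52 ± 0.0917 on the log2 scale and no longer passed (edgeR adjusted p = 0.331). The population difference was then -0.67 ± 0.0641 and still passed (edgeR adjusted p = 4.46e-06).

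**Figure D2:**
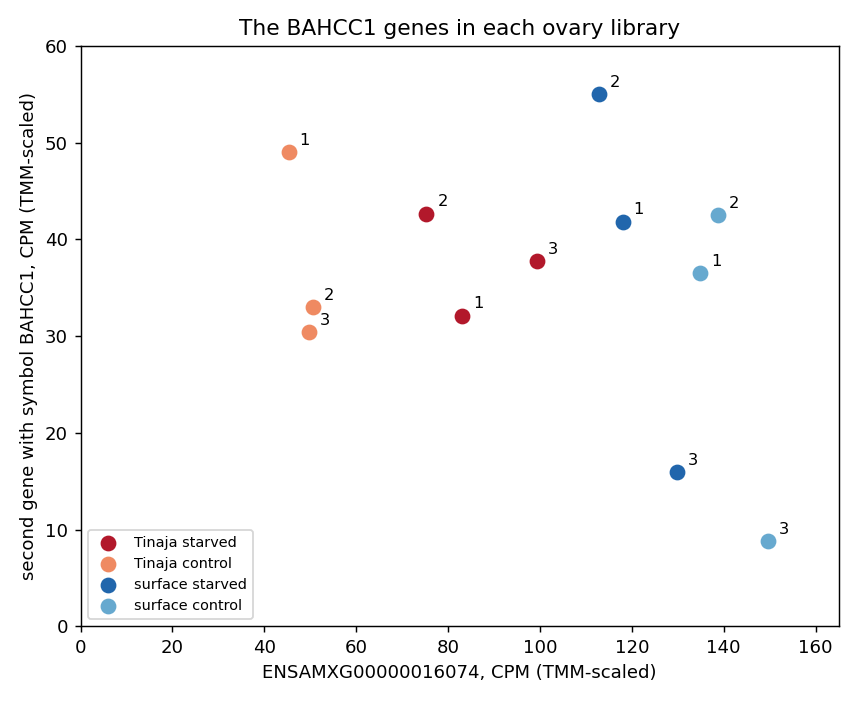
CPM (TMM-scaled) of ENSAMXG00000016074 (horizontal axis) against that of the second gene with the symbol BAHCC1 (vertical axis), 1 point for each of the 12 libraries, numbered by replicate and coloured by group. The groups part along the horizontal axis, while starved 3 (15.9 CPM) and control 3 (8.77 CPM) of surface fish lie lowest on the vertical one.

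TNRC18, the relative of BAHCC1, measured 394 ± 10.4 CPM in starved and 374 ± 5.69 CPM in control Tinaja cavefish, and 422 ± 34.4 CPM in starved and 380.5 ± 22.8 CPM in control surface fish (SD, n = 3 each). It passed no comparison (edgeR adjusted p = 1 for starvation in Tinaja cavefish, 0.203 in surface fish and 0.291 between populations). BAHD1, another BAH domain gene, had too few reads to test.

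Genes of the Polycomb mark, of BAH readers and of the co-repressors were taken as a list of 38 entries, of which 31 were tested. In starved Tinaja cavefish 0 of the 31 passed in edgeR, where 0.0205% of all tested genes did. An unadjusted p under 0.05 was reached by 0 of the 31 and by 578 of all 14627 genes. DESeq2 called 0 of the 31, and 18 of all genes. The median log2 change was 0.020, against -0.00026 over all tested genes. In starved surface fish 1 of 31 rose, 3.23% against a background of 1.74%: rbbp4, a histone-binding subunit of Polycomb and deacetylase complexes, had 380 ± 6.21 CPM in starved and 321 ± 8.08 CPM in control ovaries (log2 0.24 ± 0.0493, edgeR adjusted p = 0.0300). At an unadjusted p under 0.05 stood 12 of the 31, and 3296 of all 14627 genes. The rbbp4 call ended when any 1 surface library other than control 1 was left out (adjusted p of 0.0537 to 0.125).

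Between populations, 10 of the 31 genes were lower and 2 higher in Tinaja cavefish, 32.3% and 6.45% against 25.3% and 25.7% of all tested genes. The median log2 difference was -0.069, against 0.0053 over all. The Polycomb subunit gene suz12a (log2 difference -0.49, edgeR adjusted p = 1.14e-05) and kdm6bb, which encodes an eraser of the Polycomb mark (-1.02, edgeR adjusted p = 0.000127), were among the lower genes. HDAC3, a histone deacetylase, did not pass between populations (log2 0.11, edgeR adjusted p = 0.719). In surface fish HDAC3 had 43.3 ± 19.1 CPM in starved and 18.5 ± 1.34 CPM in control ovaries. That log2 change of 1.23 ± 0.33 did not pass either (edgeR adjusted p = 0.0632). The 2 higher genes were mtf2, a Polycomb accessory subunit, and tbl1xr1b, a co-repressor subunit (log2 differences of 0.39 and 0.25).

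letm1 had its low and high levels in opposite feeding states of the populations. It measured 21.8, 20.1 and 24.3 CPM in starved and 16.5, 15.9 and 16.7 CPM in control Tinaja cavefish. The surface fish had 13.9, 14.5 and 15.8 CPM in starved and 23.9, 25.8 and 25.1 CPM in control ovaries. Starved lay above control in all Tinaja libraries and below control in all surface libraries, without overlap in either population, as for 4.69% and 14.8% of all tested genes. In order of means, control surface fish and starved Tinaja cavefish overlapped at the top, and control Tinaja cavefish and starved surface fish lay below, with their nearest libraries at 15.9 and 15.8 CPM.

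The letm1 values behind these calls rest on 102 to 198 reads per library. The difference between the responses of letm1, which chose it, was 1.19 ± 0.169 on the log2 scale (edgeR adjusted p = 0.0192). The change in Tinaja cavefish was 0.43 ± 0.120, with an interval of 0.15 to 0.71 at 95%, and did not pass over all genes (edgeR adjusted p = 0.965), so by its own Tinaja contrast letm1 is no called gene. The change in surface fish was -0.76 ± 0.120 (edgeR adjusted p = 0.0197), which is part of the contrast that chose it. That surface call ended without control 2 (0.0693) or control 3 (0.0594) of surface fish. The call of the difference ended without control 2 (0.0740) or 3 (0.0735) of surface fish, without control 2 (0.0646), control 3 (0.0575) or starved 3 (0.0701) of Tinaja cavefish, and with the replicate number as a block (0.0543).

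Averaged over feeding, the populations had almost the same level of letm1, with a log2 difference of -0.013 ± 0.0848 (edgeR adjusted p = 0.909) and an interval of -0.21 to 0.18 at 95%. Within feeding states the means stood apart in opposite directions, which restates the contrast that chose letm1 and is a description. The means were 22.05 ± 2.11 CPM in starved Tinaja cavefish and 14.7 ± 1.02 CPM in starved surface fish. In control fish they were 16.4 ± 0.394 CPM in Tinaja cavefish and 24.9 ± 0.967 CPM in surface fish (SD, n = 3 each).

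**Figure D3:**
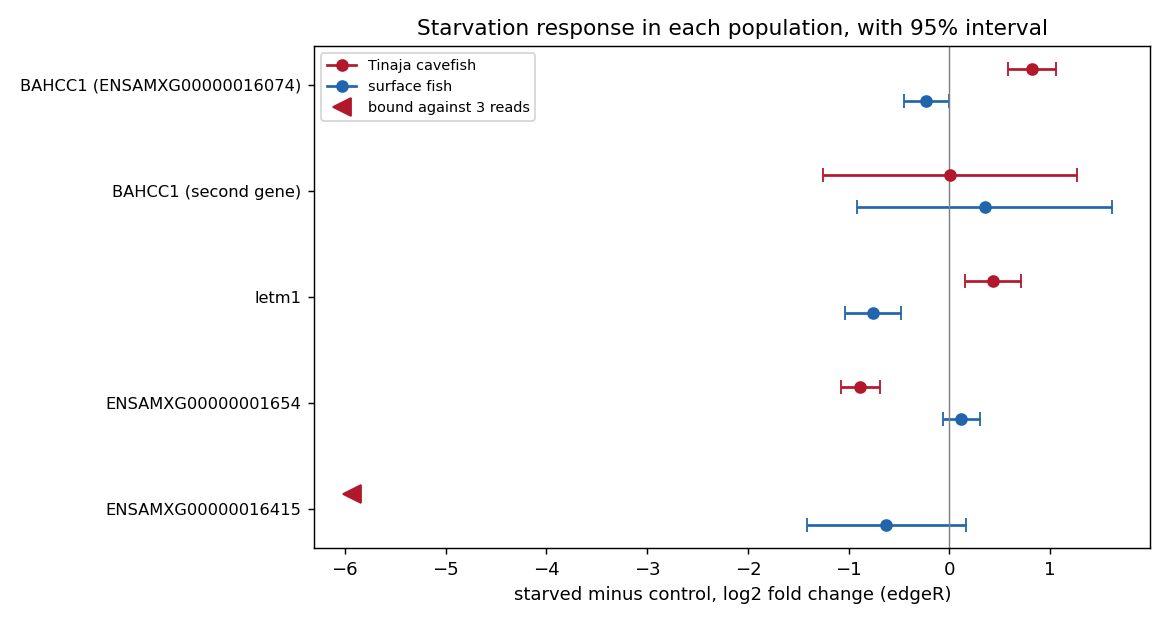
Log2 fold change of starved over control ovaries (horizontal axis) for each gene, in Tinaja cavefish (red) and surface fish (blue), with the edgeR estimate as a point and its interval at 95% as a bar. The red triangle is a bound of -5.93 against 3 reads, since starved Tinaja cavefish had 0 reads of ENSAMXG00000016415. letm1 lies at 0.43 in Tinaja cavefish and -0.76 in surface fish.

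Marker lists also stood apart by feeding in surface fish. The summed oocyte level was 7475 to 8033 CPM in starved and 5359 to 6218 CPM in control surface fish, and 6 of the 15 oocyte genes rose, where 1.74% of all tested genes did. The summed granulosa level was 18.2 to 23.6 CPM in starved and 27.1 to 30.1 CPM in control surface fish, and 1 of the 9 tested genes fell, where 1.45% of all did. The epithelium list (1484 to 1730 CPM in starved, 1322 to 1431 CPM in control surface fish), the red blood cell list (90.8 to 105.9 and 49.5 to 88.5 CPM) and the list of theca and steroid synthesis (1.22 to 3.48 and 3.50 to 6.44 CPM) did not overlap either, with no gene called in them by edgeR. Such a gap was common: 13.7% of all tested genes lay higher and 14.8% lower in starved surface fish without overlap. These shares are for single genes and not for sums of a list. Over all libraries epcam averaged 1150 CPM, most of the epithelium sum. The tfr1a entry ENSAMXG00000039429 averaged 54.7 CPM, most of the red blood cell sum, and hbba2 of that list 0.65 CPM. These sums therefore mainly describe epcam and tfr1a. The remaining 5 lists overlapped between starved and control surface fish, and all 10 overlapped between starved and control Tinaja cavefish. There the oocyte list summed to 5869 to 6509 CPM in starved and 5676 to 7125 CPM in control ovaries, and the granulosa list to 29.9 to 52.3 and 34.4 to 50.8 CPM.

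Between populations, averaged over feeding, 25.7% of all tested genes were higher and 25.3% lower in Tinaja cavefish. Higher were 9 of the 12 tested stroma genes, 3 of the 3 of theca and steroid synthesis and 3 of the 6 of smooth muscle, with 0 lower. Of 9 granulosa genes 5 were higher and 1 lower, and of 15 oocyte genes 1 was higher and 7 lower. Of the fat cell genes 2 of 3 were higher, and of the blood vessel genes 2 of 5, with 0 lower. Of 7 epithelium genes 2 were higher and 1 lower. Of 10 macrophage and neutrophil genes 4 were higher and 1 lower, and of 3 red blood cell genes 1 and 2. The smooth muscle list summed to 57.6 to 95.9 CPM in starved and 68.0 to 86.5 CPM in control Tinaja cavefish, and to 8.97 to 35.1 CPM in starved and 23.7 to 29.8 CPM in control surface fish. The stroma list, at 333.9 to 646 and 435 to 914 CPM in starved and control Tinaja cavefish and 341 to 433 and 361 to 484 CPM in starved and control surface fish, overlapped. Over all libraries fn1a averaged 368 CPM, most of the stroma sum, so this sum says little about the other genes of the list. The part of these cell types in the values of letm1, of BAHCC1 and of the other genes and lists, by feeding or by population, was not tested.

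The RefSeq gene table (assembly AstMex3_surface) places letm1 between nsd2 and fgfr3, next to both. The histone methyltransferase gene nsd2 had 535 ± 17.7 CPM in starved and 509 ± 20.0 CPM in control Tinaja cavefish and 577 ± 29.5 CPM in starved and 508 ± 7.32 CPM in control surface fish. Its starvation changes did not pass (edgeR adjusted p = 1 in Tinaja cavefish and 0.0829 in surface fish). The growth factor receptor gene fgfr3 was near the level of 3 reads in surface fish, at 0.332 ± 0.464 CPM in starved and 0.444 ± 0.176 CPM in control ovaries, against 3.06 ± 2.23 CPM in starved and 2.98 ± 2.84 CPM in control Tinaja cavefish. The log2 changes of fgfr3 with starvation, 0.027 ± 0.882 in Tinaja cavefish and -0.29 ± 1.24 in surface fish, are too imprecise to compare with those of letm1.

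The relatives of letm1 passed no starvation comparison. LETM2 measured 68.6 ± 4.54 CPM in starved and 61.9 ± 5.52 CPM in control Tinaja cavefish and 65.8 ± 3.46 CPM in starved and 77.0 ± 7.76 CPM in control surface fish (SD, n = 3 each). Its log2 changes had the same signs as those of letm1, 0.15 in Tinaja cavefish and -0.22 in surface fish, with adjusted p of 1 and 0.188 in edgeR and 0.245 for their difference. letmd1 lay between 2.29 and 5.16 CPM in all 12 libraries.

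A list of 36 genes, letm1 itself left out, took in mitochondrial ion transport, the LETM family and other mitochondrial genes such as YME1L1, opa1 and mgme1. Of the 36 genes, 33 were tested. In starved Tinaja cavefish 0 of them passed in edgeR (0.0205% of all tested genes did), 1 had an unadjusted p under 0.05 (578 of all 14627 did) and DESeq2 called 0, with a median log2 change of -0.013. That gene was slc25a24, a calcium-regulated carrier of ATP and phosphate, at 0.528 ± 0.296 CPM in starved and 2.14 ± 0.684 CPM in control Tinaja cavefish (edgeR adjusted p = 0.612). In starved surface fish 1 of 33 fell, 3.03% against a background of 1.45%: MRS2, the magnesium channel of the inner membrane, had 18.6 ± 2.27 CPM in starved and 27.6 ± 0.479 CPM in control ovaries (log2 -0.57, edgeR adjusted p = 0.0294). At an unadjusted p under 0.05 stood 8 of the 33, and 3296 of all 14627. The MRS2 call ended when any 1 surface library other than control 1 and starved 2 was left out (adjusted p of 0.0722 to 0.111).

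Between populations, 9 of the 33 were higher and 7 lower in Tinaja cavefish, 27.3% and 21.2% against 25.7% and 25.3% of all tested genes. YME1L1, a protease of the inner membrane, measured 79.9 ± 6.66 CPM in starved and 79.2 ± 15.3 CPM in control Tinaja cavefish, and 26.0 ± 5.65 CPM in starved and 33.2 ± 2.83 CPM in control surface fish (log2 1.44, edgeR adjusted p = 1.43e-06). The calcium uniporter gene mcu had 9.65 ± 2.41 and 10.0 ± 1.02 CPM in starved and control Tinaja cavefish, and 24.5 ± 0.235 and 15.8 ± 1.55 CPM in starved and control surface fish (log2 -1.0, edgeR adjusted p = 4.32e-05). The carrier gene slc25a24 was lower in Tinaja cavefish (log2 -2.84, edgeR adjusted p = 3.41e-06) and mgme1, a nuclease of mitochondrial DNA, higher (1.04, edgeR adjusted p = 1.25e-05).

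Genes with a symbol whose log2 CPM went most closely with letm1 over the 12 libraries had Pearson's r of 0.847 to 0.886. These values describe the libraries, which share their feeding and population groups. The closest was MBD5, which encodes a methyl-CpG-binding domain protein, with group means of 52.7, 47.9, 40.4 and 59.25 CPM in starved and control Tinaja cavefish and starved and control surface fish. It was followed by scamp2l, TFAP4, TBC1D10A and lrp5. For BAHCC1 (ENSAMXG00000016074) the closest gene was mkks, a chaperonin-like gene linked to cilia, with r of 0.978 and group means of 4.00, 2.52, 6.27 and 8.35 CPM in the same order of groups. It was followed by mtmr12, CHST15, hmgcra and THNSL1 (r of 0.949 to 0.955). In control Tinaja cavefish CHST15 and hmgcra averaged 0.098 and 0.048 CPM, below the level of 3 reads in a library.

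**Figure D4:**
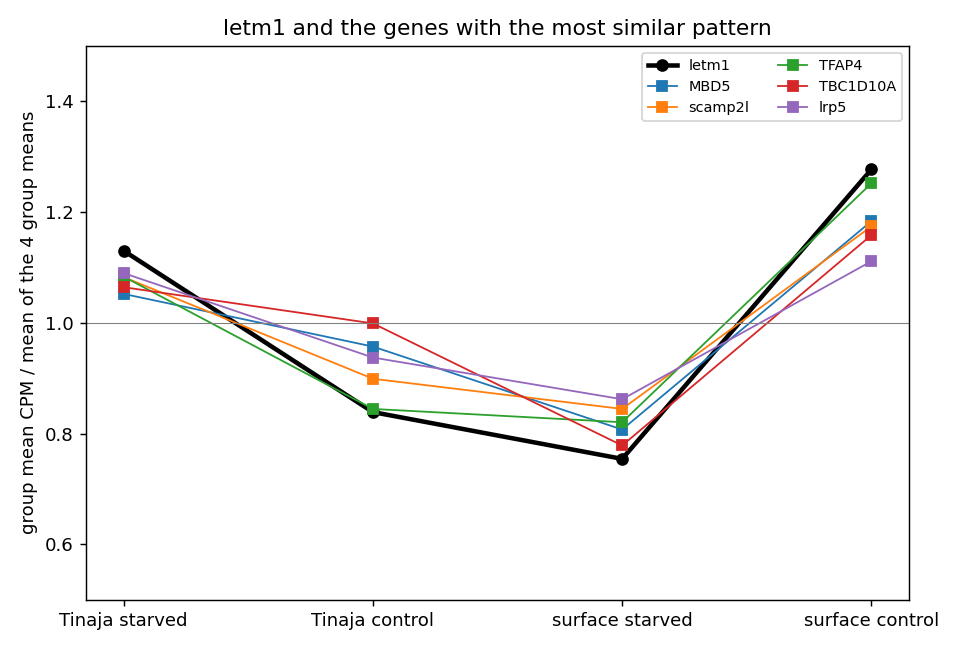
Group mean CPM divided by the mean of the 4 group means (vertical axis) for letm1 (black) and the 5 genes most like it over the 12 libraries (MBD5, scamp2l, TFAP4, TBC1D10A, lrp5), in the 4 groups. Each line is lowest in starved surface fish and highest in control surface fish, and these genes were chosen for that likeness.

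ENSAMXG00000001654, which no source used here annotates, was lower in starved Tinaja cavefish than in every other library. It had 39.0, 44.2 and 44.3 CPM in the 3 starved Tinaja cavefish (301, 356 and 270 reads), against 79.4, 72.0 and 83.7 CPM in the 3 controls. Surface fish had 88.4, 87.8 and 87.9 CPM in starved and 77.4, 87.3 and 78.5 CPM in control ovaries. The 9 libraries outside the starved Tinaja group spanned 72.0 to 88.4 CPM. Control Tinaja cavefish and control surface fish overlapped. Starved Tinaja cavefish lay below their controls without overlap, as for 3.93% of all tested genes. Starved surface fish lay above theirs, as for 13.7%, by a gap of 87.8 against 87.3 CPM between the nearest libraries.

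The log2 change of ENSAMXG00000001654 with starvation was -0.88 ± 0.0842 in Tinaja cavefish, the smallest p of that comparison (edgeR adjusted p = 0.00219, again a description). In surface fish it was 0.12 ± 0.0813 with an interval of -0.068 to 0.31 at 95% (edgeR adjusted p = 0.417). The difference between the responses was -1.004 ± 0.117 (edgeR adjusted p = 0.00678). It contains the contrast that chose the gene, so it is a description too. Averaged over feeding the gene was lower in Tinaja cavefish, by -0.55 ± 0.0585 (edgeR adjusted p = 1.06e-05). That average takes in the low starved libraries that chose the gene and is a description: the log2 ratio of means was -1.05 between the starved groups and -0.048 between the control groups. The Tinaja call ended in a fit of the Tinaja libraries alone (adjusted p = 0.0856) and held with each library left out.

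The SD of ENSAMXG00000001654 within groups was 0.0892 on the log2 scale, and that of letm1 was 0.0895. About 11.2% and 11.3% of the tested genes had smaller ones. Genes with a symbol that went most closely with ENSAMXG00000001654 had r of 0.857 to 0.884: slc25a24, FIGNL2, GTF3C5, mcfd2 and adprm. Within surface fish alone r was 0.667 for slc25a24 and 0.519 for mcfd2, but -0.198, -0.0394 and -0.0664 for FIGNL2, GTF3C5 and adprm. FIGNL2 averaged 0.346 CPM in starved Tinaja cavefish, below the level of 3 reads in a library. GTF3C5, a subunit of a transcription factor for RNA polymerase III, had group means of 19.65, 26.5, 27.2 and 26.4 CPM in starved and control Tinaja cavefish and starved and control surface fish.

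ENSAMXG00000016415, likewise without annotation here, had no read in any starved Tinaja cavefish. It had 73, 51 and 48 reads (10.7, 7.32 and 7.03 CPM) in control Tinaja cavefish. Surface fish had 69, 51 and 146 reads (9.37, 6.83 and 15.7 CPM) in starved and 159, 79 and 143 reads (19.2, 10.7 and 19.6 CPM) in control ovaries. The 3 groups with reads overlapped their neighbours in the order of means.

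Set against 3 reads over the group, which is 0.137 CPM, starved Tinaja cavefish had an at least 60.9-fold lower level of ENSAMXG00000016415 than their controls (edgeR adjusted p = 0.00355, a description). They lay at least 80.4-fold below starved surface fish. These bounds cover counting error only. A count of 0 in a library allows up to 0.372 to 0.492 CPM in the starved Tinaja libraries. The call ended in a fit of the Tinaja libraries alone (adjusted p = 0.0856) and held with each library left out.

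In surface fish the log2 change of ENSAMXG00000016415 was -0.63 ± 0.343 and did not pass (edgeR adjusted p = 0.311, interval of -1.42 to 0.16 at 95%). Control fish alone had 8.36 ± 2.06 CPM in Tinaja cavefish and 16.5 ± 5.01 CPM in surface fish (SD, n = 3 each). Averaged over feeding, with starved Tinaja cavefish at the 3-read bound, the log2 population difference was at most -3.66 (edgeR adjusted p = 8.28e-06). This average takes in the 0-read libraries that chose the gene, so it is a description as well.

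Across all 27420 genes of the table, ENSAMXG00000016415 was the 1 gene (0.00365%) with 0 reads in all starved Tinaja cavefish and at least 10 in each of the other 9 libraries. For control Tinaja cavefish and for starved surface fish 0 genes had such a pattern, and for control surface fish 1 did. Genes with a symbol that went most closely with ENSAMXG00000016415 were PLPP3, tfa, FIGNL2, entpd1 and TECPR1 (r of 0.868 to 0.899). These r take in the 0-read libraries that chose the gene. Within surface fish alone r was 0.677, 0.952, 0.652, -0.4 and 0.643 in the same order. In starved Tinaja cavefish tfa and FIGNL2 averaged 0.235 and 0.346 CPM, below the level of 3 reads in a library. TECPR1, which acts in autophagy, had 20.0, 51.1, 77.6 and 80.0 CPM as group means in starved and control Tinaja cavefish and starved and control surface fish.

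Just outside the threshold in Tinaja cavefish stood DNAH17, an axonemal dynein heavy chain gene, at 149 ± 17.3 CPM in starved and 93.8 ± 7.82 CPM in control ovaries (log2 0.67, edgeR adjusted p = 0.0670). The next genes, ENSAMXG00000038049, ENSAMXG00000003853, ENSAMXG00000015319 and ENSAMXG00000016247, had adjusted p of 0.396 to 0.612. BAHCC1, with an adjusted p of 0.0137, was the last gene inside. For the difference between responses ism2b (0.0572) and ENSAMXG00000030168 (0.0653) stood just outside.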

How the data were processed

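RNA of right ovaries was depleted of ribosomal RNA before directional library synthesis and was read on a Singular Genomics instrument, per the labels' protocols. The authors deposited whole-read counts for 27420 genes and a scaled signal table for 14627 of them. STAR 2.7.10b and RSEM appear in the submitters' processing notes, without roles. No source used here gives the build, annotation or strand setting. The deposited signal values equal TMM-scaled CPM to a relative difference of 4.97e-15, and converting them back to reads gave whole numbers for 100% of values (tolerance 0.001). A count test of these recovered reads made as many calls as the main one. The match of the values fixed that outcome, so it is no separate check. The entries for reads without a gene were left out: unmapped (7.28% to 10.1% of reads per library), multimapping (9.91% to 16.8%), outside genes (14.1% to 17.9%) and ambiguous (0.276% to 0.368%).

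The main test was the robust quasi-likelihood F test of edgeR 4.0.16 (R 4.3.3), after filterByExpr at a minimum count of 10 and TMM scaling, with a mean for each group, 8 residual degrees of freedom, and Benjamini-Hochberg adjustment over 14627 genes at 0.05. The SE is the log2 value over the square root of its F, and intervals use 8 degrees of freedom; both are approximations. Contrasts were starved minus control in each population, their difference, and Tinaja minus surface averaged over feeding. Alternatives were DESeq2 1.42.0, its size factors in edgeR, no filter, the replicate number as a block, each population alone and leaving out each library.

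The genes, lists and tests were chosen with earlier results of these data known. Beyond the 4 genes and the second BAHCC1 gene, the text names their relatives, list genes of smallest p (1 of them is not reported here), the 5 genes with a symbol of highest Pearson correlation of log2 CPM (prior count 2), genes next to the threshold, genes called by the difference of responses, and neighbours of letm1. HDAC3, mtf2, tbl1xr1b and mcu were named in the population comparison after their values were seen. Symbols come from the count table, which gives one to 16752 genes, and the RefSeq table matched letm1 by symbol.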

Additional observations from a re-analysis of the deposited data

Results flagged for a closer look

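The starvation responses of Tinaja cavefish and surface fish differed by the edgeR test of the difference itself for 10 genes, given as Tinaja minus surface on the log2 scale. These are 0.0684% of the 14627 tested genes. The 4 genes described above are among them, with 1.05 for BAHCC1 (ENSAMXG00000016074), 1.19 for letm1, -1.004 for ENSAMXG00000001654 and at most -5.34 for ENSAMXG00000016415. For these 4 the values are descriptions, since the test chose letm1 and contains the contrast that chose the others. The BAHCC1 difference did not pass with the reads of both BAHCC1 genes summed. The other 6 of the 10 genes had changes in surface fish. SHANK3 (-4.17), spg11 (-0.87) and PM20D2 (-3.66) were higher in starved than control surface fish, with 5.13 ± 1.29 and 6.21 ± 0.930 CPM for SHANK3 in starved and control Tinaja cavefish and 10.4 ± 2.46 and 0.675 ± 0.460 CPM in starved and control surface fish. ENSAMXG00000032655 (-6.84) and ENSAMXG00000038070 (-2.98) had 0 reads in control surface fish, so both values are set against 3 reads over that group. ENSAMXG00000031665 had 5.30, with 7.11 ± 2.56 and 3.59 ± 0.897 CPM in starved and control Tinaja cavefish and 0.260 ± 0.147 and 5.33 ± 1.1 CPM in starved and control surface fish. Some of these values rest on few reads. In control surface fish PM20D2 had 1, 2 and 1 reads and SHANK3 had 10, 3 and 3. In starved surface fish ENSAMXG00000031665 had 2, 3 and 1 reads and ENSAMXG00000038070 had 4, 7 and 8. Single libraries within groups of 3 were not tested as outliers.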

How the results depend on the processing

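The population difference of BAHCC1 (ENSAMXG00000016074), a description, kept its direction and call under each alternative. DESeq2 called 18 genes for starvation in Tinaja cavefish (3 in the main test), 1301 in surface fish (466) and 270 for the difference (10). Of the 10 genes, DESeq2 gave an adjusted p for the difference only to BAHCC1 (ENSAMXG00000016074), ENSAMXG00000001654 and spg11, and called them. The others, with letm1 and ENSAMXG00000016415 among them, got no adjusted p there, so DESeq2 did not assess their calls. In surface fish it called 3 genes of the Polycomb and co-repressor list and 5 of the mitochondrial list (1 each in the main test), and in the difference 1 of the Polycomb list (0). In fits of 1 population alone 0 genes were called in Tinaja cavefish by edgeR (452 at an unadjusted p under 0.05) and 141 in surface fish. There the log2 changes lost their calls at 0.82 for BAHCC1, -0.89 for ENSAMXG00000001654 and -5.93 for ENSAMXG00000016415. Such a fit holds fewer samples and takes its spread from 1 population alone, and why the calls ended was not tested. Summing both BAHCC1 genes, chosen after seeing the data, ended the calls at 0.52 in Tinaja cavefish and 0.63 for the difference; the cause was not tested. Replicate numbers did not pair the samples (correlations of same-numbered deviations of -0.311 to 0.0826). With the number as a replicate block 80 genes were called in surface fish, the letm1 difference was 1.19 and not called, and rbbp4 and MRS2 were not called either. Leaving out 1 library gave 3 to 34 genes in Tinaja cavefish, 27 to 864 in surface fish, 8 to 49 for the difference and 6968 to 7315 between populations. Over the same alternatives the Tinaja change of BAHCC1 was 0.71 to 0.91, the letm1 difference was 1.11 to 1.25, its surface change -0.81 to -0.71 and its population difference -0.052 to 0.018. The second BAHCC1 gene, at 0.0018 in Tinaja cavefish, had -0.0029 with DESeq2 size factors, -0.0035 with DESeq2, -0.0028 in the Tinaja fit alone and -0.13 to 0.24 with 1 library left out. In surface fish it ran from -0.077 to 0.73, in the difference from -0.72 to 0.079 and between populations from -0.040 to 0.37. ENSAMXG00000038070 and PM20D2 lost the call of the difference without several single libraries. The lowest counts per library were 0 reads for ENSAMXG00000016415, 64 for the second BAHCC1 gene and 102 for letm1, which limits their precision.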
